A study of Mus musculus with 30 samples.

Results

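Histone acetylation was described at 10 of 21887 protein-coding mouse genes, the genes of MHC class II antigen presentation: H2-Aa, H2-Ab1, H2-Eb1, H2-DMa, H2-DMb1, H2-DMb2, H2-Oa, H2-Ob, Cd74 and Ciita. Peaks from 15 ChIP-seq lists were merged into regions per mark. A region was assigned to every gene whose RefSeq span, widened by 1 kb, it overlapped. Failing that, it went to the gene whose end was closest, up to 50 kb away. All 10 genes had regions of each mark. They held 71 of 40435 H3K27ac regions, 61 of 44756 H3K18ac regions and 50 of 34515 H3K56ac regions.

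The study compared lymphoid cells of C57BL/6 mice that all carried floxed alleles of Crebbp, the gene of the acetyltransferase CBP. Wild-type animals (CBPfl/fl:Mx-Cre-) lacked the Cre transgene, and Crebbp-null animals (CBPfl/fl:Mx-Cre+) carried it under the inducible Mx promoter, which is active in many blood and other cells. Wild-type B cells were B220+ spleen cells obtained by flow sorting, and Crebbp-null lymphoproliferative disease (LPD) was taken as unsorted spleen cells, each with 2 lists of H3K27ac, H3K18ac and H3K56ac. Progenitors were lineage-negative, IL-7 receptor-positive marrow cells with 1 H3K27ac list per genotype, and CBP was profiled once, in wild-type B cells. The labels give no ages and do not say whether lists 1 and 2 came from different mice, so p-values measure only the spread between these lists. Genotype, disease, sorting and any difference in cell make-up cannot be told apart in LPD against B cells, nor can fewer cells with a mark and less of it per cell.

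MHC class II molecules present peptides from endosomes to CD4+ T cells, and B cells carry them constitutively. Their genes share promoter elements called the X and Y boxes, which RFX, CREB and NF-Y proteins bind. Ciita encodes the coactivator CIITA, which docks on these assembled factors without binding DNA itself and recruits acetyltransferases, CBP among them. Cd74 encodes the invariant chain, which chaperones class II molecules, H2-DM removes its remnant to let peptides bind, and H2-O restrains H2-DM.

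RefSeq promoter windows of build GRCm38.p6, from 250 bases before to 50 bases after a start site, matched 7 of the 10 genes. Stretches of 6 of them are shown because they carry the letters that the class II genes have in common. They are written 5′ to 3′ on the gene's strand, with capitals for the letters AACNNATG, typical of an X box, for GATTGG, typical of a Y box, and in H2-Aa for TGACG, the core of the part of the X box that CREB binds. Coordinates are, in order, chr17:34305766-34305824 (plus strand), chr17:34287855-34287909 (minus), chr17:34153087-34153146 (plus), chr17:34145116-34145175 (plus), chr17:34238808-34238864 (plus) and chr17:34092293-34092352 (plus).
H2-Eb1: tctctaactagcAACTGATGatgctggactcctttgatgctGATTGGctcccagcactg
H2-Aa: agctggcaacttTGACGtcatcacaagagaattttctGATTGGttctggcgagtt
H2-DMb1: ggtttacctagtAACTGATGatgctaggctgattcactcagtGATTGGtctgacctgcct
H2-DMb2: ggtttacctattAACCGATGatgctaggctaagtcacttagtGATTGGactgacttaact
H2-Ob: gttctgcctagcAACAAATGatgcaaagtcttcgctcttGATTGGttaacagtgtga
H2-Oa: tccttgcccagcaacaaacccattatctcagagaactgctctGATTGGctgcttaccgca

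From first base to first base, AACNNATG and GATTGG lay 29 bases apart in H2-Eb1, 30 in H2-DMb1, 30 in H2-DMb2 and 27 in H2-Ob. AACNNATG followed by GATTGG at 20 to 40 bases, searched on both strands, occurred in 26 of 32851 RefSeq windows (0.0791%), and these 4 genes and the neighbouring class II gene H2-Eb2 were among them. The single motifs were far more frequent, with AACNNATG in 8.86%, GATTGG in 16.1% and TGACG in 20.8% of windows. The H2-DMa window at its first start site held neither AACNNATG nor GATTGG. A second H2-DMa window, chr17:34125268-34125567, held GATTGG without AACNNATG and is not printed. The letters searched were chosen from knowledge of class II promoters, and a match describes the sequence only.

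These promoters differed in how far H3K27ac covered them in LPD. At H2-DMb2, H3K27ac peaks covered the whole 300 bases of the window (chr17:34144999-34145298) in both B cell lists and 0 bases in both LPD lists, and neither H3K18ac nor H3K56ac reached it in any list. The CBP list covered 144 bases of that window, with a peak at chr17:34144873-34145142 that overlaps the stretch printed for H2-DMb2. At H2-Eb1, 300 bases were covered in all 4 H3K27ac lists, and at H2-Ob likewise. The H2-DMb1 window was covered over 300 and 300 bases in B cells and 300 and 188 in LPD, that of H2-Aa over 300 and 300 against 300 and 238, and that of H2-Oa over 300 and 300 against 292 and 108. H2-DMb2 was thus the 1 gene of the 7 whose covered window had no H3K27ac in either LPD list. Further into the gene, H2-DMb2 had H3K27ac in all 4 lists, so the gene as a whole was not stripped of the mark. That part and the promoter window lie in 1 merged region, chr17:34144775-34147057. The region counts as kept below, although its promoter part had no H3K27ac in LPD.

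The lists gave positions without scores, so the length covered by peaks, in kb, is the measure used below, and read depth is unknown. H3K27ac lists covered 26.4 to 27.1 Mb in B cells and 26.2 and 18.2 Mb in LPD. The H3K18ac lists covered 13.3 and 14.01 Mb against 29.5 and 21.4 Mb, the H3K56ac lists 10.6 and 9.44 Mb against 17.04 and 18.3 Mb, and the progenitor lists 9.43 Mb for wild type and 6.32 Mb for the null. Over all genes, limma at an adjusted p below 0.05 called 8.28% higher and 13% lower in LPD in H3K27ac, 26.8% and 3.36% in H3K18ac, and 37.4% and 3.81% in H3K56ac. Of 8 B cell markers, none was without H3K27ac in either B cell list or the first LPD list, and Cr2 was at 0 in the second. Their summed H3K27ac was 65.4 and 65.3 kb in B cells and 60.5 and 41.1 kb in LPD, and 2 of 8 fell. In H3K18ac 3 of 8 rose and 2 fell, with Fcer2a at 0 in both LPD lists, and in H3K56ac 5 of the 7 tested rose and 1 fell. Of 8 myeloid markers, 6 had no H3K27ac in B cells or LPD (Csf1r, Lyz2, Cd14, Mpo, Elane and Cebpa), and Itgam and Adgre1 together held 6.12 and 6.24 kb in B cells and 4.53 and 2.47 kb in LPD. Of 8 T and NK cell markers, 5 had no H3K27ac (Cd3e, Cd3g, Cd4, Cd8a and Ncr1). The others summed to 10.2 and 10.1 kb in B cells against 5.90 and 3.84 kb in LPD, and 1 of 3 tested fell. Among the myeloid markers 1 of 4 tested rose in H3K18ac, where Cebpa was at 0 in B cells but not in LPD. In H3K56ac 0 of 2 myeloid markers tested rose or fell. Among the T and NK cell markers 0 of 3 tested rose or fell in H3K18ac. In H3K56ac 1 of 4 rose and 1 fell, and Cd4 was at 0 in B cells but not in LPD. Of 5 erythroid markers, 1 rose in each mark, with 3 tested in H3K27ac and 2 in each of the others. Of 6 dendritic markers, 4 were tested in each mark, and 1 rose in H3K27ac and 3 each in H3K18ac and H3K56ac. Their summed H3K18ac was 2.15 and 2.81 kb in B cells and 18.5 and 12.4 kb in LPD, with Itgax and Clec9a at 0 in all 4. Dendritic cells carry class II molecules too, and the part of other cells in the values below was not tested.

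**Figure D1:**
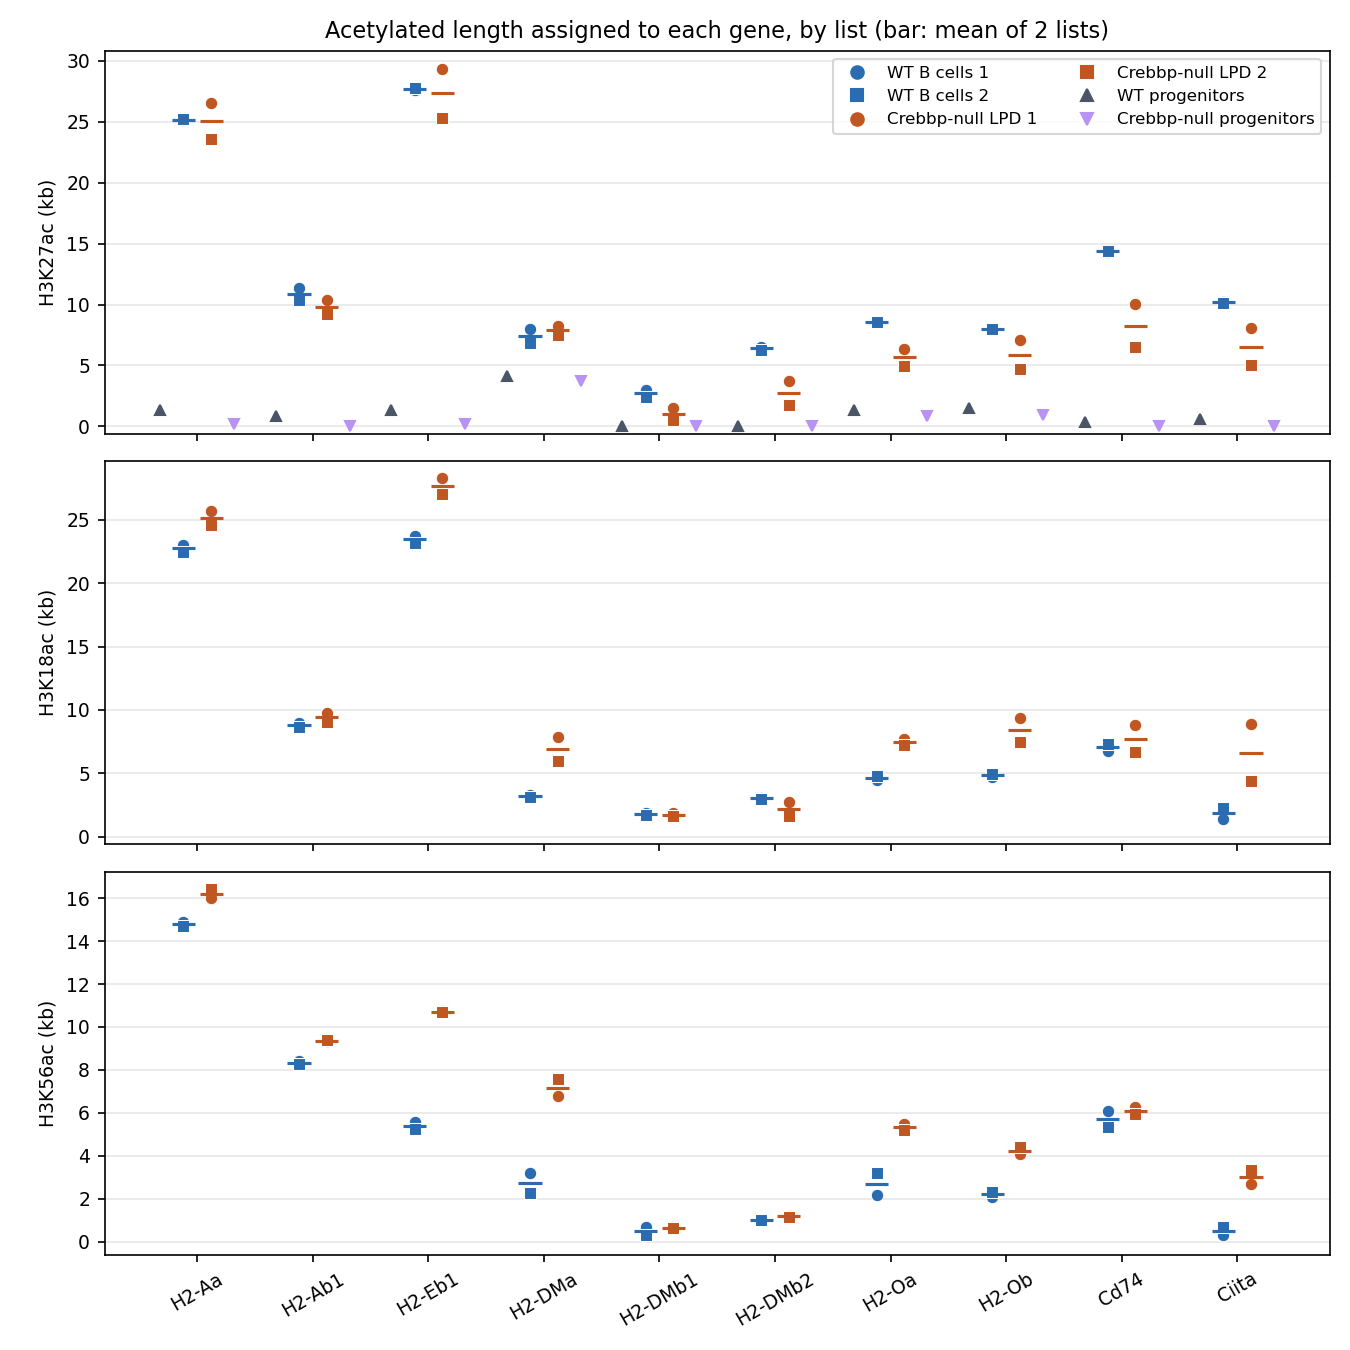
Length covered by peaks (kb, vertical axis) assigned to each of the 10 genes, with 1 panel per mark. Points are single lists, bars are means of 2 lists, and triangles are the 1-list progenitor samples. In H3K27ac both LPD lists lie below both B cell lists at 7 genes, while in H3K56ac both lie above at 8.

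In H3K27ac, B cells and LPD overlapped at H2-Aa, H2-Eb1 and H2-DMa, while H2-Ab1, the H2-DMb genes, the H2-O genes, Cd74 and Ciita had less in both LPD lists than in either B cell list. No gene passed the test of limma on log2(kb + 0.5) with Benjamini-Hochberg adjustment over 11986 genes (0 of 10 higher and 0 of 10 lower). Over all genes, 8.28% were called higher and 13% lower. At an unadjusted p below 0.05, 4 of 10 were lower and 0 higher. Both LPD values lay below both B cell values at 7 of 10 genes, against 38.9% of all genes, and above at 0 of 10, against 23.2%. The median log2 change was -0.50 over the 10 genes and -0.08 over all genes. In simulated data this test found none of the 2-fold and 38% of the 4-fold changes in H3K27ac. Far more genes were called in the real lists than were changed in the simulation, so these shares do not give the test's sensitivity. The lack of a call does not by itself show that a gene was unchanged. With values centred on the median gene of each list, 5 of 10 passed as lower (H2-DMb1, H2-DMb2, H2-Oa, Cd74 and Ciita), and over all genes 2104 were higher and 2452 lower in place of 993 and 1562. With either B cell list left out the test was unable to call any gene of the genome, so it could not decide there. The log2 ratio of H3K27ac length summed over the 10 genes, LPD to B cells, kept its sign with any 1 list left out. It was -0.54 without the first LPD list and -0.17 without the second. Without the first and second B cell list it was -0.33 and -0.37.

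Of the classical genes, which encode the chains of the surface molecules, H2-Aa (chr17:34282744-34287823) had 25.1 and 25.2 kb in B cells and 26.6 and 23.6 kb in LPD. H2-Eb1 (chr17:34305867-34316674) had 27.6 and 27.8 kb against 29.4 and 25.3 kb. The values of the groups overlapped at both genes, with log2 changes of -0.01 ± 0.14 (SE, adjusted p = 0.973 by limma) and -0.02 ± 0.14 (adjusted p = 0.927). H2-Ab1 (chr17:34263227-34269418) had 11.3 and 10.4 kb against 10.3 and 9.26 kb, so both LPD values were below both B cell values, with a log2 change of -0.14 ± 0.14 (adjusted p = 0.528 by limma).

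The 2 values at H2-Aa and H2-Eb1 come largely from 1 shared block of chromatin. At chr17:34283561-34310324 the 4 H3K27ac lists merged into a region of 26.8 kb that runs from H2-Aa across the intergenic stretch into H2-Eb1, and it was the widest of the 40435 regions of the mark. The lists covered 25.1 and 25.2 kb of it in B cells and 26.6 and 23.6 kb in LPD. In H3K18ac the block was again the widest of the mark (chr17:34284994-34310381, 25.4 kb), with 23.0 and 22.5 kb against 25.4 and 24.6 kb. In H3K56ac it was broken, and its main piece of 13.4 kb (chr17:34287954-34301320), between the genes, was once more the widest of the mark, with 13.1 and 13.0 kb in B cells and 13.3 and 13.1 kb in LPD. The block was therefore present in B cells and LPD alike in all 3 marks. The H2-Ab1 region (chr17:34257790-34265860, 8.07 kb) was also kept in all 4 H3K27ac lists, with 8.06 and 8.00 kb in B cells and 8.07 and 7.56 kb in LPD.

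**Figure D2:**
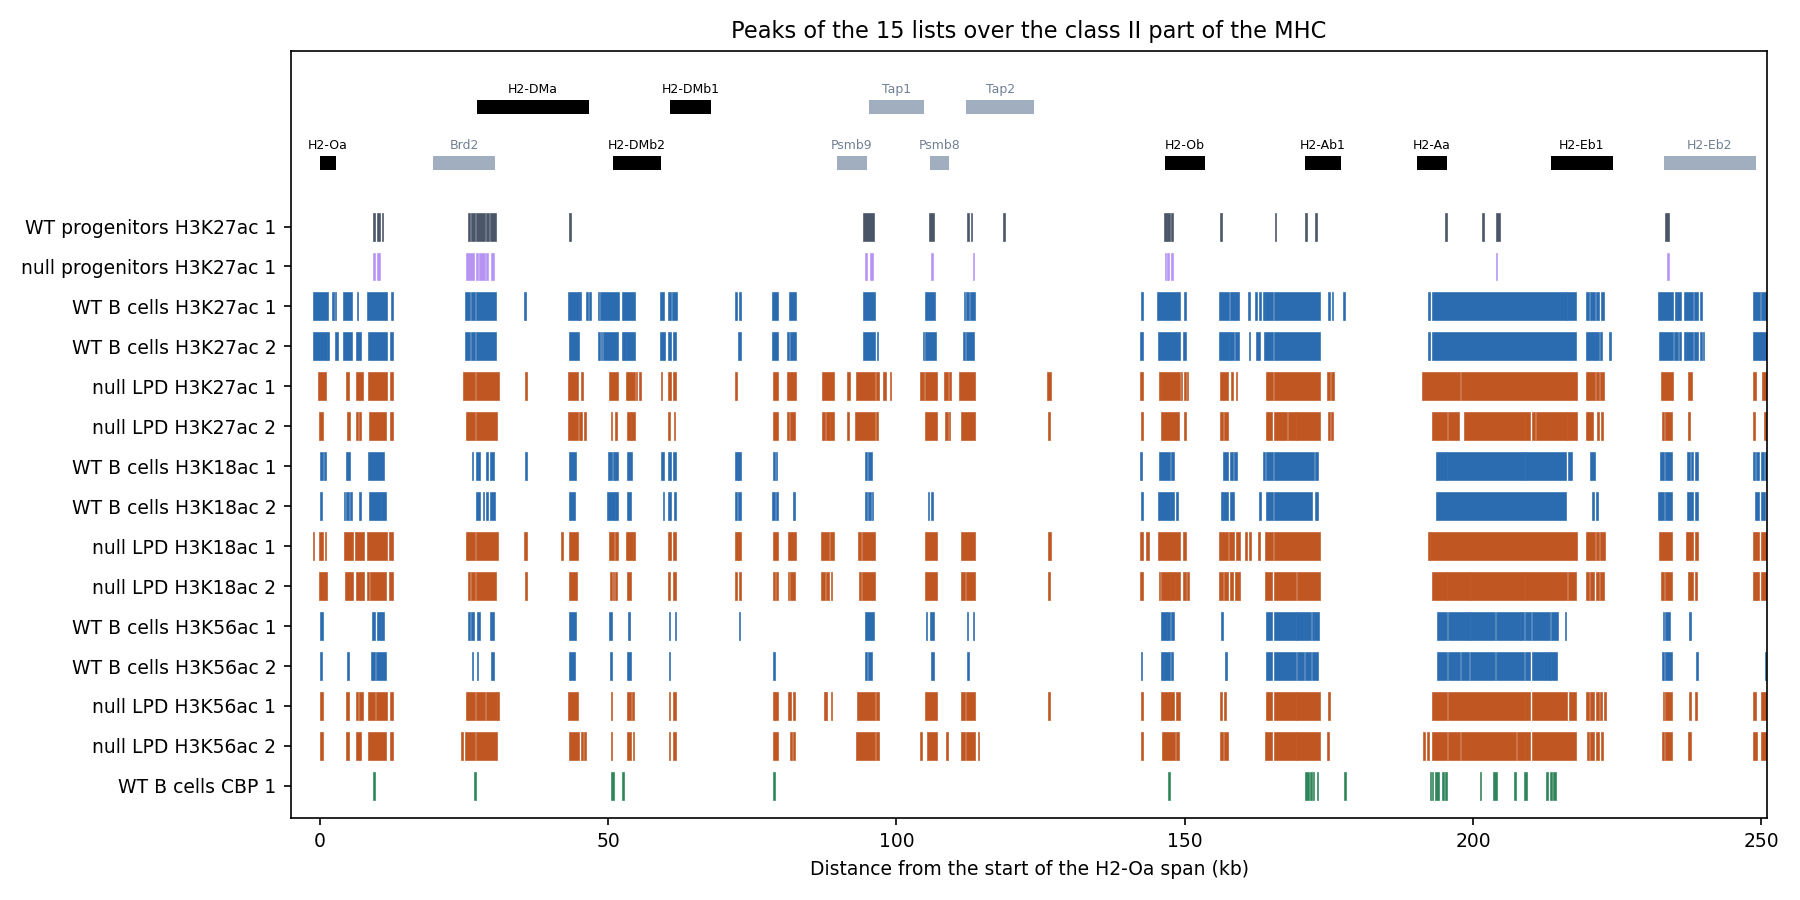
Peaks of the 15 lists over the class II part of the MHC on chromosome 17 (horizontal axis, distance in kb from the start of the H2-Oa span), with 1 row per list and gene spans above, the described genes in black. The wide block between H2-Aa and H2-Eb1 appears in each B cell and LPD acetylation row, is reduced to 3 short peaks in wild-type progenitors and to 1 in Crebbp-null progenitors, and holds many of the CBP peaks.

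The genes for peptide loading stood differently. H2-DMb1, which encodes a beta chain of H2-DM (chr17:34153191-34160229), had 2.96 and 2.45 kb of H3K27ac in B cells against 1.49 and 0.490 kb in LPD, a log2 change of -1.19 ± 0.37 (SE, adjusted p = 0.0937 by limma). The second beta chain gene, H2-DMb2 (chr17:34143229-34151553), had 6.54 and 6.29 kb against 3.76 and 1.80 kb, a log2 change of -1.14 ± 0.32 (adjusted p = 0.0763 by limma). Both LPD lists were below both B cell lists at each gene, and the second LPD list, which covered less of the genome, was the lower. A region between them at chr17:34151356-34152198 was counted for both genes. They are related copies, and how the authors placed reads that match both is not given in the sources used here, so the split between them is uncertain. H2-DMa, the alpha chain gene (chr17:34119693-34139101), had 7.96 and 6.84 kb in B cells and 8.24 and 7.53 kb in LPD, which overlap. Much of this lies at the start of Brd2, whose span overlaps that of H2-DMa. Without the shared regions H2-DMa had 2.92 and 1.78 kb against 2.21 and 2.37 kb. The shared regions also hold the H2-DMa window at its first start site (chr17:34122582-34122881), so values without them leave out that start too.

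H2-Oa (chr17:34092379-34095234), the alpha chain gene of H2-O, had 8.59 and 8.58 kb in B cells and 6.38 and 4.96 kb in LPD, a log2 change of -0.57 ± 0.17 (SE, adjusted p = 0.0841 by limma). H2-Ob (chr17:34238905-34245908), the beta chain gene, had 8.00 and 8.01 kb against 7.07 and 4.72 kb, a log2 change of -0.44 ± 0.22 (adjusted p = 0.253). The groups did not overlap at either gene. At H2-Oa the region at its start (chr17:34091158-34093935) went from 2.71 and 2.62 kb to 1.41 and 0.693 kb, and the nearer downstream region at chr17:34096363-34098044 from 1.68 and 1.49 kb to 0.546 and 0.499 kb. The region further downstream at chr17:34100681-34104027 had 3.35 and 3.27 kb against 3.21 and 3.06 kb.

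Cd74 (chr18:60803849-60812652) had 14.3 and 14.4 kb of H3K27ac in B cells against 10.1 and 6.47 kb in LPD, a log2 change of -0.79 ± 0.24 (SE, adjusted p = 0.0870 by limma). The difference lay upstream. The region over the first part of the gene (chr18:60803774-60809435) had 5.64 and 5.46 kb against 5.64 and 5.04 kb, whereas 5 regions upstream of the gene, from chr18:60793642 to 60800806, were present in both B cell lists and in neither LPD list. Those 5 regions held 3.36 kb on average in B cells. The widest, chr18:60799698-60800806, had 1.11 and 1.05 kb in B cells.

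Ciita (chr16:10480014-10531064) had 10.2 and 10.2 kb in B cells and 8.03 and 5.01 kb in LPD, a log2 change of -0.64 ± 0.25 (SE, adjusted p = 0.152 by limma). Its regions did not move together. At 4 regions both B cell lists and neither LPD list had a peak, among them 10509120-10510119 and 10510177-10510971 on chromosome 16, and at 2 regions the reverse held, 10489696-10490075 and 10490248-10491103. The 2 regions present in LPD alone adjoin chr16:10488236-10489600, which all 4 lists had, with 0.965 and 1.01 kb in B cells and 1.36 and 1.02 kb in LPD. The remaining lost regions, 10475714-10476081 and 10487083-10487852, had lower coordinates than every LPD peak at Ciita. LPD also kept H3K27ac further into the gene, as at 10515231-10516112. The B cell H3K27ac at Ciita was thus spread over more places than that of LPD.

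**Figure D3:**
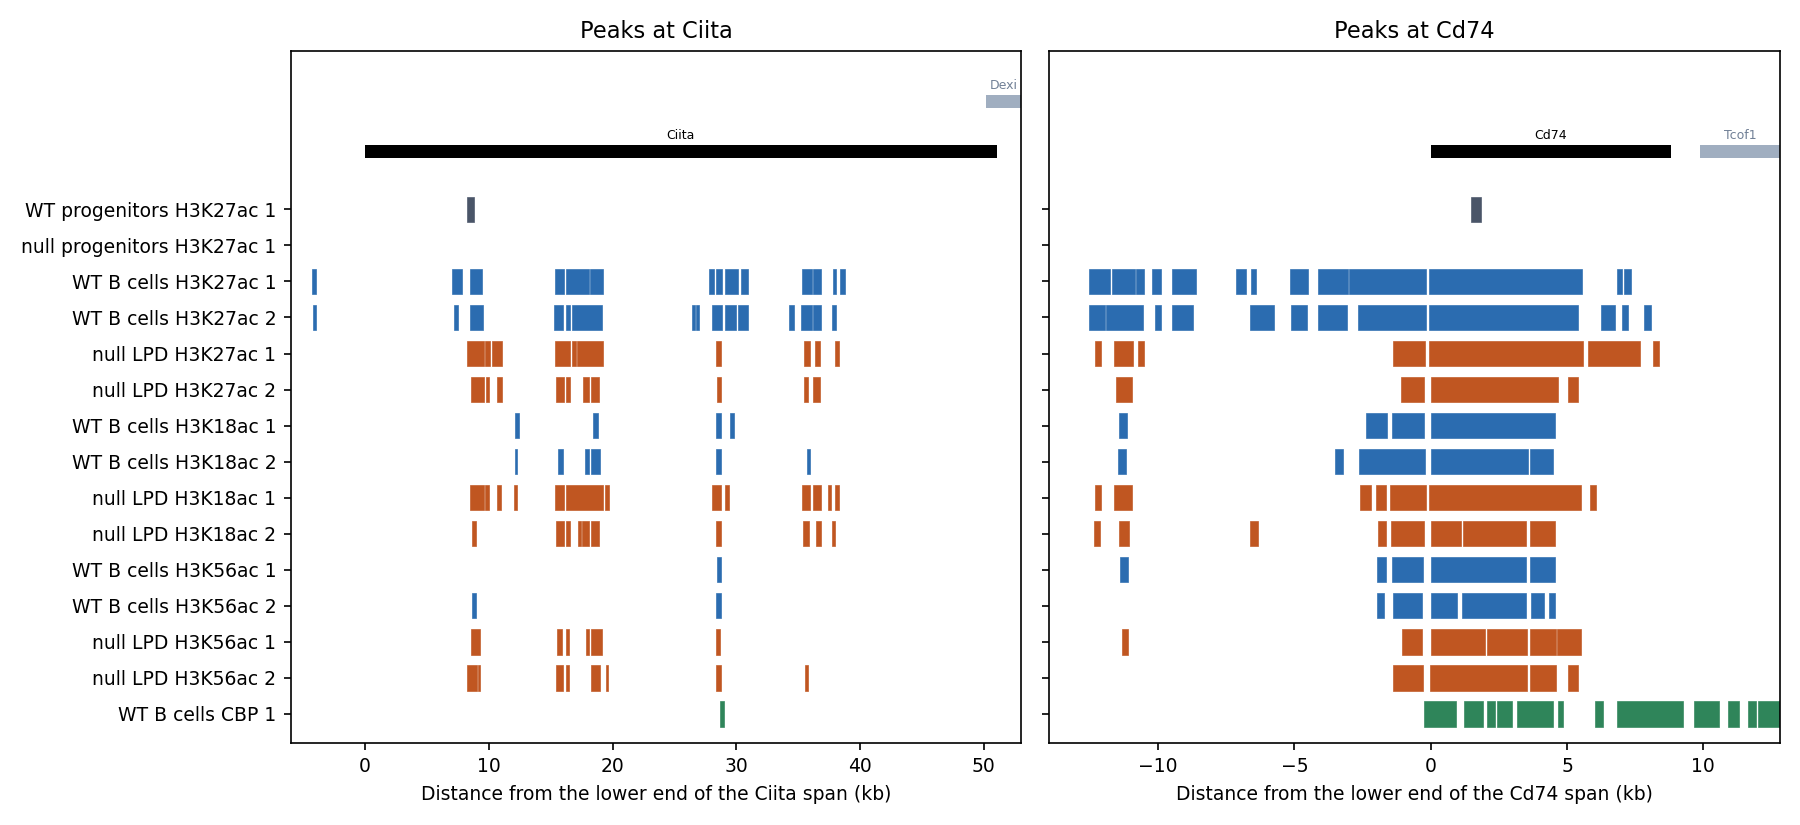
Peaks of the 15 lists at Ciita (left) and Cd74 (right), with 1 row per list (horizontal axis, distance in kb from the lower coordinate of the gene span). At Cd74 the LPD lists lack the 5 H3K27ac regions upstream of the gene and keep the block over it. At Ciita H3K18ac and H3K56ac are sparse in B cells and cover more places in LPD, and the single CBP peak lies within the gene.

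Counted over all 10 genes, 13 of 71 H3K27ac regions were lost in LPD (both B cell lists and neither LPD list), against 15.9% of all regions. The reverse, a gain, was seen at 2 of 71 regions, both at Ciita, against 11.4% of all regions, and 29 of 71 (40.8%) were kept in all 4 lists, against 36.5% of all regions. The lost regions lay at Cd74 (5), Ciita (4) and, with 1 each, H2-Ab1, H2-DMb1, H2-Oa and H2-Ob, and at H2-Aa, H2-Eb1, H2-DMa and H2-DMb2 there was none. CBP peaks overlapped 14 of the 71 regions (19.7%), against 2.21% of all regions. The 71 include the widest region of the mark, and wide regions are overlapped more easily, so these shares are not like for like. Of the 14, 10 were kept, against 753 of 894 among all regions with a CBP peak. None of the 13 lost regions overlapped a CBP peak, and few lost regions did in all, 62 of 6445. Regions on the gene spans, widened by 1 kb, held 4 of the lost regions, so most of them were assigned by distance.

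H3K18ac and H3K56ac went the other way at several of the same genes. In H3K18ac, H2-DMa, H2-Oa, H2-Ob and Ciita rose, 4 of 10, against 26.8% of 12226 genes, and 0 of 10 fell, against 3.36% (limma, adjusted p below 0.05). At an unadjusted p below 0.05 the counts were also 4 and 0. The median log2 change was 0.19 over the 10 genes, below the 0.36 of all genes. Both LPD values were above both B cell values at 7 of 10 genes, against 54% of all genes, and below at 1 of 10, H2-DMb2, against 12%. With values centred on the median gene of each list, 2 of the 10 were higher (H2-DMa and Ciita) and H2-DMb2 was lower, and over all genes 2849 were higher and 2025 lower in place of 3282 and 411. With either B cell list left out the test was unable to call any gene of the genome, so it could not decide there. Without the first or the second LPD list genes could be called, and the 4 calls did not all hold. The log2 ratio of H3K18ac length summed over the 10 genes was 0.27 without the first LPD list and 0.54 without the second. Without the first and second B cell list it was 0.41 and 0.43.

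Ciita had the largest difference of the 10 in H3K18ac, with 1.41 and 2.29 kb in B cells and 8.88 and 4.38 kb in LPD, a log2 change of 1.55 ± 0.39 (SE, adjusted p = 0.0420 by limma), or 1.20 above the median gene. Both LPD lists exceeded both B cell lists, and the first LPD list had more than the second. The call was lost with a pseudocount of 0.1 kb, lists of equal peak number (log2 change 1.31) or peaks of at least 500 bp. With 1 of the 4 lists left out the log2 change ranged from 1.08 to 2.02. Those fits leave a lone list in 1 group. Without either B cell list they were unable to call any gene, and Ciita did not pass without the first or the second LPD list. The gained regions were chr16:10488499-10489601, with 1.10 and 0.358 kb in LPD, and chr16:10516241-10516867, with 0.627 and 0.449 kb. Both places already had H3K27ac in both B cell lists.

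H2-Oa had 4.43 and 4.82 kb of H3K18ac in B cells and 7.72 and 7.22 kb in LPD, a log2 change of 0.64 ± 0.16 (SE, adjusted p = 0.0404 by limma). H2-Ob had 4.72 and 4.95 kb against 9.32 and 7.46 kb, a log2 change of 0.73 ± 0.18 (adjusted p = 0.0417). Both genes of the H2-DM inhibitor therefore rose in H3K18ac, and they lay above the median gene by 0.28 and 0.37. Neither passed after centring, with a pseudocount of 0.1 kb, with gene spans only or with peaks of at least 500 bp, and H2-Ob did not pass with lists of equal peak number. H2-DMa had 3.28 and 3.10 kb against 7.87 and 5.98 kb (log2 change 0.997 ± 0.19, adjusted p = 0.0225 by limma), and without the regions shared with Brd2 the log2 change was 0.49 with an adjusted p of 0.175.

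The other genes did not pass in H3K18ac. H2-Aa had 23.0 and 22.5 kb in B cells and 25.7 and 24.6 kb in LPD, H2-Ab1 8.95 and 8.64 kb against 9.72 and 9.08 kb, and H2-Eb1 23.7 and 23.2 kb against 28.3 and 27.03 kb. All 3 were above B cells in both LPD lists but below the shift of the median gene. H2-DMb1 had 1.87 and 1.70 kb against 1.86 and 1.59 kb, and Cd74 had 6.76 and 7.33 kb against 8.77 and 6.69 kb, which overlap. H2-DMb2 had 3.05 and 2.996 kb against 2.76 and 1.65 kb, the 1 gene with both LPD values below B cells, with a log2 change of -0.41 ± 0.25 (SE, adjusted p = 0.286 by limma).

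In H3K56ac, H2-Eb1, H2-DMa, H2-Oa, H2-Ob and Ciita rose, 5 of 10, against 37.4% of 11817 genes, and 0 of 10 fell, against 3.81% (limma, adjusted p below 0.05). At an unadjusted p below 0.05 the counts were again 5 and 0. The median log2 change was 0.52 over the 10 genes and 0.36 over all genes. Both LPD values exceeded both B cell values at 8 of 10 genes, against 67.1% of all genes, and lay below at 0 of 10, against 8.48%. Centring on the median gene left 3 of the 10 higher (H2-Eb1, H2-DMa and Ciita), with 2031 genes higher and 1392 lower in all in place of 4423 and 450. Without the first or the second LPD list 0 of 10 passed (4 and 2 at an unadjusted p below 0.05), and without the second B cell list 3 did.

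Ciita had 0.325 and 0.697 kb of H3K56ac in B cells and 2.71 and 3.34 kb in LPD, a log2 change of 1.82 ± 0.23 (SE, adjusted p = 0.0103 by limma), 1.46 above the median gene. The B cell lists had 1 and 2 regions there, and the LPD lists 6 and 7. The region that all 4 lists shared, chr16:10508369-10508760, had 0.325 and 0.392 kb in B cells and 0.285 and 0.369 kb in LPD. The difference thus came from places other than this one: 3 regions were present in both LPD lists alone, the widest at chr16:10498236-10499157 with 0.865 and 0.740 kb.

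H2-Eb1 had 5.58 and 5.23 kb against 10.7 and 10.7 kb, a log2 change of 0.92 ± 0.08 (SE, adjusted p = 0.00589 by limma). LPD had 4 regions in the gene body, all between chr17:34311951 and 34314862, where no B cell list had a peak, and the region over the gene's start (chr17:34302514-34310296) went from 4.69 and 4.36 kb to 7.36 and 7.78 kb. When each base was assigned on its own, the H2-Eb1 values were 9.91 and 9.65 kb against 15.2 and 15.1 kb (log2 change 0.60, adjusted p = 0.0114 by limma). When each peak was assigned on its own, H2-Eb1 had 10.5 and 10.2 kb in B cells against 10.7 and 12.04 kb in LPD and no longer passed (log2 change 0.13, adjusted p = 0.344 by limma). H2-Aa then had 9.98 and 9.73 kb against 16.0 and 15.1 kb and passed (log2 change 0.63, adjusted p = 0.0123 by limma), so which of these neighbours rose depends on the assignment.

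H2-Oa had 2.16 and 3.18 kb of H3K56ac in B cells and 5.47 and 5.22 kb in LPD, a log2 change of 0.90 ± 0.19 (SE, adjusted p = 0.0299 by limma). H2-Ob had 2.09 and 2.34 kb against 4.08 and 4.42 kb, a log2 change of 0.81 ± 0.10 (adjusted p = 0.00981). Each gene gained 1 region, 34098629-34099897 downstream of H2-Oa and 34240786-34241482 within H2-Ob on chromosome 17. H2-DMa had 3.22 and 2.27 kb against 6.77 and 7.59 kb (log2 change 1.26 ± 0.18, adjusted p = 0.0136 by limma), but without the regions it shares with Brd2 the log2 change was 0.57 with an adjusted p of 0.0719.

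The remaining genes had log2 changes in H3K56ac from 0.09 to 0.22, under that of the median gene. H2-Aa had 14.9 and 14.7 kb in B cells and 16.0 and 16.4 kb in LPD, and H2-Ab1 8.42 and 8.28 kb against 9.36 and 9.38 kb. H2-DMb2 had 0.994 and 1.03 kb against 1.22 and 1.17 kb, and these 3 genes did not overlap between groups. H2-DMb1 (0.696 and 0.309 kb against 0.668 and 0.628 kb) and Cd74 (6.10 and 5.34 kb against 6.27 and 5.94 kb) did.

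**Figure D4:**
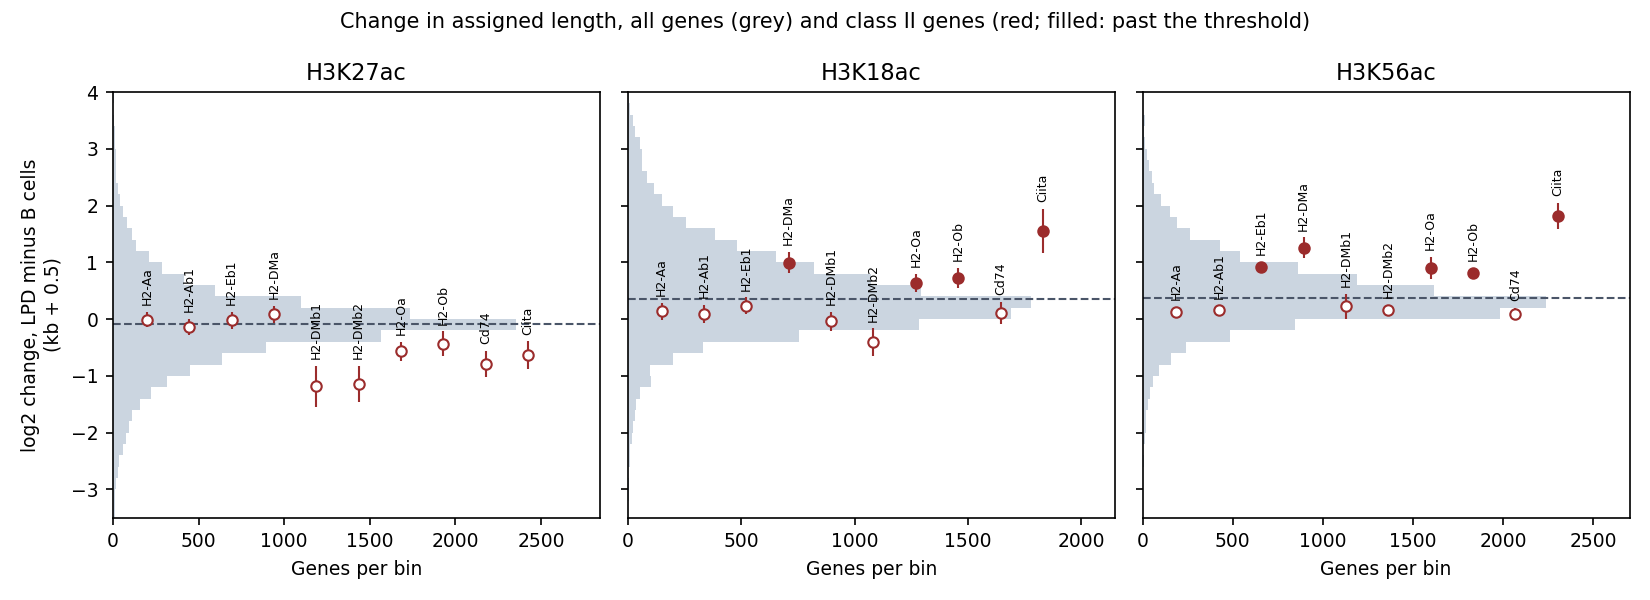
Log2 change from B cells to LPD (vertical axis, on kb + 0.5) for all genes as a histogram (horizontal axis, genes per bin of 0.2; a few genes beyond the vertical limits are not shown) with the 10 described genes as points, spaced along the horizontal axis only for legibility. Error bars are SE from limma, filled points passed the adjusted threshold and dashed lines are medians of all genes. The points lie at or under the median in H3K27ac except for H2-DMa, H2-Aa and H2-Eb1, and Ciita lies highest in H3K18ac and H3K56ac.

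Regions were counted in the other marks too. In H3K18ac, 5 of 61 regions were gained, against 25% of all regions, and 1 was lost, against 3.88%. In H3K56ac, 12 of 50 were gained, against 23.7%, and 1 was lost, against 4.21%. The H3K56ac gains lay at H2-Eb1 (4), Ciita (3) and, with 1 each, H2-Ab1, H2-DMb2, H2-Oa, H2-Ob and Cd74. The share gained was under that of all regions in H3K18ac and near it in H3K56ac, as was the share lost in H3K27ac.

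Summed over the 10 genes, H3K27ac went from 96.7 and 94.1 kb in B cells to 84.5 and 65.6 kb in LPD, H3K18ac from 58.2 and 59.0 kb to 85.5 and 71.1 kb, and H3K56ac from 44.4 and 43.4 kb to 63.3 and 64.8 kb. As a share of each list's covered length the order changed in H3K18ac and H3K56ac, while the groups overlapped in H3K27ac. In H3K27ac the share was 0.357 and 0.356% in B cells and 0.323 and 0.359% in LPD, in H3K18ac 0.437 and 0.421% against 0.290 and 0.332%, and in H3K56ac 0.420 and 0.459% against 0.371 and 0.354%. The H3K18ac and H3K56ac length at these genes was thus larger in LPD but made up a smaller share of lists that had grown more elsewhere. Sums and shares over chosen genes are given without a test, and 2 lists against 2 could not go below p = 0.33 in an exact two-sided permutation test.

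Whether H3K18ac and H3K56ac changed differently from H3K27ac at the same gene was tested with an interaction term in limma, added after the values had been seen. That fit took the lists of both marks as independent, which was not tested. The H3K18ac change exceeded the H3K27ac change at 4 of 10 genes (H2-DMa, H2-Oa, H2-Ob and Ciita), against 18.9% of all genes, and the H3K56ac change at 6 of 10 (the same 4 with H2-Eb1 and H2-DMb2), against 25%. At Ciita the difference of log2 changes was 2.19 ± 0.50 (SE, adjusted p = 0.0252 by limma) for H3K18ac and 2.46 ± 0.36 (adjusted p = 0.00611) for H3K56ac. For H2-Oa it was 1.21 ± 0.23 (adjusted p = 0.0147) and 1.47 ± 0.26 (adjusted p = 0.0108), and for H2-Ob 1.16 ± 0.29 (adjusted p = 0.0341) and 1.24 ± 0.26 (adjusted p = 0.0170). The medians over all genes were 0.47 and 0.48, and after centring on the median gene these 3 genes passed in both marks and none of the others did. Over all genes 1733 of 11585 were then higher and 460 lower for H3K18ac, and 1301 of 11459 higher and 429 lower for H3K56ac. Cd74, with differences of 0.91 ± 0.32 (adjusted p = 0.0901 by limma) and 0.88 ± 0.28 (adjusted p = 0.0585), did not pass in either.

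Progenitors had little H3K27ac at these genes, and the Crebbp-null list had less than the wild-type list. With 1 list per genotype there is no test, and the null list was also shorter over the whole genome. Summed over the 10 genes the lists covered 10.2 kb for the wild type against 5.69 kb for the null, 0.109 and 0.0899% of each list, far below the 94.1 to 96.7 kb of B cells. Of the 8 genes with H3K27ac in wild-type progenitors, 3 had none in the null, against 12.5% of such genes, and 5 had at most 0.5 times the wild-type length, against 24.7%. The median ratio of null to wild type was 0.154 over the 8 genes and 0.738 over the 9674 genes with wild-type signal. The 0.154 is the ratio of the region that H2-Aa and H2-Eb1 share. It was counted once for each of these genes, also among the 5.

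The 3 genes without a peak in null progenitors were Ciita, Cd74 and H2-Ab1. Ciita had 0.601 kb in the wild-type list, in 1 peak at chr16:10488234-10488834, where B cells and LPD also had H3K27ac. Cd74 had 0.387 kb in 1 peak inside the gene (chr18:60805309-60805695), and H2-Ab1 had 0.889 kb in 3 peaks. H2-Aa and H2-Eb1 shared 1.35 kb in the wild-type list against 0.208 kb in the null list, within the wide block. H2-DMb1 and H2-DMb2 had no peak in either genotype, and the absence of a peak means only that the caller's threshold was not reached.

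The other genes kept more. At H2-Oa the wild-type list covered 1.33 kb against 0.855 kb for the null, and at H2-Ob 1.51 and 0.919 kb. H2-DMa had 4.17 and 3.71 kb, nearly all in the regions shared with Brd2. The H2-Oa peaks lay in the downstream region that also had a CBP peak in B cells (chr17:34101667-34101959), not at its start. All 21 wild-type and 11 null progenitor peaks at these genes lay in regions that both B cell lists and both LPD lists had. For Ciita the order of H3K27ac length over the groups was therefore null progenitors (0 kb), wild-type progenitors (0.601 kb), LPD (5.01 and 8.03 kb) and B cells (10.2 and 10.2 kb), and the last groups did not overlap.

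CBP was measured in wild-type B cells only. Of its 1000 peaks, 32 (3.20%) lay at these genes, and they made up 16.2 of 305 kb (5.30%). A peak was present at 9 of the 10 genes, against 3.85% of all protein-coding genes, H2-DMb1 being the exception. Cd74 had more CBP-covered sequence than any other gene, 7.90 kb in 9 peaks, but 2 of the peaks are shared with the adjoining gene Tcof1, including the second widest of the list (chr18:60810672-60813110, 2439 bases). H2-Aa followed as the third gene with 2.86 kb in 7 peaks, H2-Eb1 as the eighth with 1.87 kb in 5 peaks and H2-Ab1 as the ninth with 1.84 kb in 5 peaks. H2-DMb2 had 2 peaks, and H2-DMa, H2-Oa, H2-Ob and Ciita 1 each.

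CBP peaks at the classical genes lay at their starts, inside H2-Aa and H2-Ab1 and in the block between H2-Aa and H2-Eb1. At H2-Ab1, 4 of 5 peaks fell between chr17:34263236 and 34265522, and the fifth lay past the gene's end (chr17:34270057-34270373). At H2-Aa, 5 of 7 peaks lay within the gene, 3 of them between chr17:34284877 and 34286522. The H2-Eb1 promoter window was covered over 124 bases and that of H2-Aa over 29 bases. Ciita's 1 peak, chr16:10508702-10508986, was 285 bases wide, fell inside the gene, and overlapped the H3K56ac region that B cells and LPD shared. At Cd74 CBP ran over the length of the gene and past its end on the side of Tcof1, where H3K27ac was short or absent.

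Of the 32 CBP peaks, 28 (87.5%) overlapped H3K27ac in both B cell lists, 22 (68.8%) H3K18ac and 23 (71.9%) H3K56ac. For the whole CBP list the shares were 87, 73.5 and 59.9%, so these peaks were near the rest in H3K27ac. In LPD, 26 of the 32 overlapped H3K27ac in both lists, against 709 of the whole 1000. Among the 28 with H3K27ac in both B cell lists, the H2-DMb2 promoter peak was the 1 that had H3K27ac in neither LPD list.

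The pathway around these genes was followed with 5 lists, of which every gene was tested in every mark. In the class II transcription machinery (7 genes), 0 rose or fell in H3K27ac (8.28% and 13% of all genes did), 2 rose in H3K18ac (26.8%) and 3 rose in H3K56ac (37.4%), by limma at an adjusted p below 0.05. These counts are near the shares of all genes. Rfx5, a subunit of the X box factor RFX, had 0.762 and 0.680 kb of H3K56ac in B cells and 1.77 and 2.42 kb in LPD (log2 change 1.08). Rfxank, a second subunit, had 0.636 and 0.33 kb against 1.43 and 1.41 kb (0.98), and Nfya, a subunit of the Y box factor NF-Y, had 1.85 and 1.91 kb against 3.62 and 4.17 kb (0.88). Nfyb rose in H3K18ac, from 0.245 and 0.224 kb to 0.657 and 0.606 kb (0.62). The median over the 7 genes was -0.19, 0.58 and 0.88 in H3K27ac, H3K18ac and H3K56ac, beside -0.08, 0.36 and 0.36 over all genes.

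Among 6 processing enzymes, 0 rose or fell in H3K27ac (8.28% and 13% of all genes did), 4 rose in H3K18ac (26.8%), and in H3K56ac 3 rose (37.4%) and 1 fell (3.81%) by limma at an adjusted p below 0.05. Lgmn, an endosomal endopeptidase, had 2.56 and 2.63 kb of H3K18ac against 15.2 and 10.7 kb (log2 change 2.099), beside 10.1 and 9.98 kb against 14.96 and 10.2 kb of H3K27ac, which had not passed. Ifi30, a thiol reductase of the same compartment, had 0.806 and 0.656 kb of H3K18ac against 3.67 and 2.93 kb (1.62). The cathepsin genes Ctsb and Ctsd rose in H3K18ac by 1.28 and 1.09 on the log2 scale. The 1 that fell in H3K56ac was Ctsl, from 0.294 and 0.587 kb to 0 in both LPD lists, named after its value was seen.

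Of 6 genes of class II turnover and costimulation, H3K27ac rose at 2 (8.28% of all genes) and fell at 1 (13%), H3K18ac rose at 4 (26.8%) and H3K56ac at 5 (37.4%) by limma at an adjusted p below 0.05. Marchf1, a ubiquitin ligase that removes class II molecules and CD86 from the surface, had 0.699 and 0.387 kb of H3K18ac in B cells and 11.5 and 5.25 kb in LPD (log2 change 3.01), beside 16.6 and 16.3 kb against 11.03 and 5.42 kb of H3K27ac (-1.04, adjusted p = 0.110). Cd80, a ligand of CD28, rose in all 3 marks, with 0.556 and 0.433 kb of H3K27ac against 5.79 and 3.41 kb. Cd86, its partner ligand, rose in H3K18ac from 2.70 and 3.41 kb to 16.8 and 12.4 kb. Icosl, the ligand of ICOS, fell in H3K27ac from 10.4 and 10.2 kb to 1.44 and 0.972 kb (log2 change -2.68, adjusted p = 0.00368 by limma). Its RefSeq promoter was among the 26 windows with AACNNATG and GATTGG so spaced.

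Of 8 factors that act at Ciita or class II genes, 3 fell (13% of all genes) and 0 rose (8.28%) in H3K27ac, 2 rose in H3K18ac (26.8%), and 4 rose (37.4%) and 1 fell (3.81%) in H3K56ac by limma at an adjusted p below 0.05. The H3K18ac count and the rises in H3K56ac are near the shares of all genes. Irf8, a factor of B and myeloid cells, had 23.8 and 24.2 kb of H3K27ac in B cells against 5.84 and 1.97 kb in LPD (log2 change -2.63), and H3K56ac fell there too, from 7.64 and 7.84 kb to 2.26 and 2.35 kb. Ebf1, a B lineage factor, had 52.5 and 50.9 kb of H3K27ac against 29.4 and 19.2 kb (-1.10) and rose in H3K56ac (0.58). Pax5, which keeps B cell identity, had 23.4 and 23.4 kb against 25.3 and 16.3 kb of H3K27ac, not passing, and rose in H3K18ac (0.94) and H3K56ac (0.67). Irf4, a factor of plasma cell differentiation, rose in H3K18ac (0.86) and H3K56ac (1.27).

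The 7 neighbours in the class II part of the MHC gave these counts: 2 rose (8.28% of all genes) and 1 fell (13%) in H3K27ac, 6 rose in H3K18ac (26.8%) and 7 in H3K56ac (37.4%), by limma at an adjusted p below 0.05. Tap2, a subunit of the peptide transporter of class I presentation, had no H3K18ac in either B cell list and 3.06 and 2.75 kb in LPD, and its H3K27ac rose from 1.60 and 1.68 kb to 3.44 and 2.76 kb. The immunoproteasome gene Psmb9 had 4.24 and 4.29 kb of H3K27ac against 8.23 and 7.60 kb (log2 change 0.82). Psmb8 and Brd2 rose in H3K18ac and H3K56ac and did not pass in H3K27ac. H2-Eb2, named after its value was seen, fell in H3K27ac from 15.5 and 15.4 kb to 9.34 and 7.31 kb and rose in H3K56ac. Medians over the 7 neighbours were 0.61 in H3K27ac, 1.41 in H3K18ac and 1.34 in H3K56ac, beside -0.08, 0.36 and 0.36 over all genes.

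The 5 genes whose assigned length was most like that of Ciita over the 14 acetylation lists, among 1300 genes with a mean of at least 3 kb, were Gatad2a (Pearson r = 0.989), Foxp1 (0.984), Smg1 (0.982), Slc38a1 (0.981) and Lcp1 (0.981). Genes of the class II set were left out of this search by design. The 14 points share libraries, marks and list lengths, so the values are a description. Foxp1 averaged 109 kb of H3K27ac in B cells against 88.7 kb in LPD, and 38.7 and 90.3 kb of H3K18ac.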

How the data were processed

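ChIP-seq peak lists of 15 of the 30 samples were used, and the other 15 samples (RNA-seq and an input) were not analysed here. The tools named per the submitters' processing notes are MACS2 2.0.10, Bowtie2 2.1.0, bedtools and Picard, with build mm10. The settings are not given in the sources used here. The values the authors deposited are positions (chromosome, start and end) of peaks called per library, with no score, so read depth is unknown, and peaks below the caller's threshold count as 0.

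Groups follow the labels. Peaks of the lists of a mark were merged, and a merged region was assigned whole to RefSeq gene spans of GRCm38.p6 (21887 protein-coding genes on the autosomes, X and Y), widened by 1 kb, otherwise to the nearest gene end within 50 kb. An overlap of 1 bp placed a region in a list. Gained regions were in the 2 LPD lists alone, lost ones in the 2 B cell lists alone, and kept ones in all 4. log2(kb + 0.5) was fitted per mark with limma 3.58.1 (R 4.3.3), LPD against B cells, with Benjamini-Hochberg adjustment over all genes with a region of the mark and a threshold of 0.05. Differences between marks used an interaction term. Python 3.11.15, NumPy 2.4.6, pandas 2.3.3 and Matplotlib 3.10.9 were used.

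The fits were tested on simulated data with 200 changed genes per mark. They recovered 0 and 38% of 2-fold and 4-fold changes over 11986 genes in H3K27ac, 0 and 0% over 12226 genes in H3K18ac, and 40 and 72% over 11817 genes in H3K56ac. Far more genes were called in the real lists, so these shares do not give the sensitivity of the fits used here.

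Named are all 10 genes, up to 4 genes with the largest log2 change per pathway list among those passing in any mark, and the 5 most like Ciita. Genes and lists were chosen with earlier results of these data known. Alternatives concerned the pseudocount, low values, centring, assignment, list length, peak width, region cover, the replicate block and single lists. Assignment by base or by peak, a trended prior variance, H2-DMa without Brd2, sums without the wide block and the interaction test were added after the data were seen.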

Additional observations from a re-analysis of the deposited data

Results flagged for a closer look

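At these genes the change from B cells to LPD differed between marks by the interaction test of limma (adjusted p below 0.05). The H3K18ac change exceeded the H3K27ac change by 2.19 on the log2 scale at Ciita, 0.91 at H2-DMa, 1.21 at H2-Oa and 1.16 at H2-Ob. The H3K56ac change exceeded it by 2.46 at Ciita, 1.17 at H2-DMa, 1.31 at H2-DMb2, 0.95 at H2-Eb1, 1.47 at H2-Oa and 1.24 at H2-Ob. The median of all genes was 0.47 and 0.48, so about that much is shared with the genome. After centring, Ciita, H2-Oa and H2-Ob passed in both marks. Among all genes 1733 of 11585 were then higher and 460 lower for H3K18ac, and 1301 of 11459 higher and 429 lower for H3K56ac. The H2-DMa values rest on regions shared with Brd2, which also hold the H2-DMa window at its first start site.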

How the results depend on the processing

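Lengths of peaks depend on how deeply each list was called, and depth is unknown. No direction reversed past the threshold. Of the values per gene and mark under alternatives, 375 kept their side of the threshold, 46 no longer passed and 27 newly passed, and the causes were not tested. In H3K27ac, the count of genes lower in LPD, 0 of 10, was 3 with a mean of at least 1 kb, 3 with the replicate block (H2-DMb1, H2-DMb2 and Cd74), 5 with centring on the median gene, 1 with gene spans only (H2-Oa) and 1 with lists of equal peak number (H2-DMb2). It ranged from 0 to 6 when 1 list was left out, with 6 without the first LPD list and 4 without the second. In H3K18ac, the 4 higher genes were 1 with a pseudocount of 0.1 kb, 2 with centring, 2 with gene spans only, 2 with lists of equal peak number and 1 with peaks of at least 500 bp. The count of lower genes was 1 with centring (H2-DMb2) and 1 with peaks of at least 500 bp (H2-DMb1). Here too the test was unable to call any gene without either B cell list. Without the first or the second LPD list it could call genes, and the 4 calls did not all hold. Counts with 1 list left out are not given for this mark. In H3K56ac, the 5 higher genes were 3 with centring and 0 to 5 with 1 list left out, with 3 without the second B cell list and 0 without either LPD list. With 1 list left out, the lone list of a group is assumed to vary like the other group. Within a mark, the numbers do not pair B cell with LPD lists: deviations of lists with the same number correlated at 0.00, 0.00 and -0.02 in the 3 marks. The block left 3 higher genes in H3K18ac (without H2-Oa) and 5 in H3K56ac. Links across marks between lists of the same number were not tested, and the interaction test took all lists as independent.

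Gained H3K27ac regions, 2, were 0 with peaks of at least 500 bp and 2 to 8 with 1 list left out, and lost ones, 13, were 4 with gene spans only and 13 to 23 with 1 list left out. Gained H3K18ac regions, 5, were 9 when a list had to cover 50% of a region and 9 to 20 with 1 list left out, and the 1 lost region was 0 at 50% cover and 1 to 3 with 1 list left out. Gained H3K56ac regions, 12, were 7 with peaks of at least 500 bp and 14 to 19 with 1 list left out. The 1 lost region was 0 with gene spans only, 3 with lists of equal peak number, 0 with peaks of at least 500 bp, 2 at 50% cover and 1 to 2 with 1 list left out. The log2 ratio of summed H3K56ac, 0.54, was 0.48 with lists of equal peak number and 0.65 without the H2-Aa and H2-Eb1 regions. That of null to wild-type progenitors, -0.85, was -0.75 with lists of equal peak number and -0.46 with peaks of at least 500 bp.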
